A study of Homo sapiens with 4 samples.

Results

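YAP, TAZ and the TEAD factors form the transcriptional end of the Hippo pathway, and their H3K27ac peaks were compared between control and *SNHG1*-depletion neuroblastoma cells. The 10 genes were the coactivators *YAP1* and *WWTR1* (TAZ), their DNA-binding partners *TEAD1*, *TEAD2*, *TEAD3* and *TEAD4*, and the target genes *CCN1*, *CCN2*, *AMOTL2* and *LATS2*. A peak was taken as a peak of a gene when it overlapped the gene body in GENCODE release 44 or the 10 kb on either side. This gave 47 of the 63699 peaks of the control list (sgCtrl) and 43 of the 50119 peaks of the *SNHG1*-depletion list (sgSNHG1). SK-N-BE(2)C is an established human neuroblastoma line with *MYCN* amplification and an adrenergic cell state. The sgCtrl cells had received Cas9 with a non-targeting guide RNA and carry the genotype label wildtype, whereas the sgSNHG1 cells had received Cas9 with guide RNAs against *SNHG1*, a long non-coding RNA, and carry the label *SNHG1* knockout. The paper describes a reporter plasmid, puromycin and expansion from sorted single cells for the *SNHG1*-depletion clones. It also calls the control a clone, but does not say whether its handling was the same. A difference between the groups thus cannot be told apart from a difference between clones or in their handling. The clone behind the ChIP-seq is not given in the sources used here.

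Each group had 2 ChIP-seq samples for H3K27ac, an acetylation mark of active promoters and enhancers, and the authors combined both samples before calling peaks. Each group was thus 1 list of peaks with no spread between replicates, no test could be made, and every comparison describes the 2 lists. The height of a peak is given as its fold enrichment, the ratio of fragments over the summit to the background that the peak caller estimated around the peak. A peak was also given the percentile of its fold enrichment among all peaks of its own list, which places it within that list. The percentile does not remove the difference in length between the lists. With lists of equal length, its median change over all genes went from -0.68 to 0.996. Fragments were recovered at the summit of each list's own peak. The sequencing depth of each sample is unknown. The *SNHG1* gene body held 1 peak in sgCtrl and 0 in sgSNHG1. The adrenergic neuroblastoma markers *HAND2*, *ISL1*, *GATA3*, *DBH* and *TH* all had peaks in both lists, with 40 peaks together in sgCtrl and 28 in sgSNHG1, a ratio of 0.70 against 0.787 for the whole lists. *DBH* went from 8 to 2 and *TH* from 13 to 7, whereas *HAND2* had 7 and 8, *GATA3* 8 and 7, and *ISL1* 4 in both. Of 4 markers of other cell types, the hepatocyte gene *ALB* had none, and *EPCAM*, *MYOD1* and *PTPRC* had 6 peaks together in each list.

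In the Hippo pathway, a kinase cascade that ends in LATS1 and LATS2 phosphorylates YAP and TAZ and keeps them out of the nucleus. YAP and TAZ have no DNA-binding domain of their own and reach chromatin mainly through TEAD factors, which bind the sequence CATTCC, often close to AP-1 sites. *CCN1* and *CCN2* encode secreted matrix proteins and are standard readouts of YAP activity. *AMOTL2* and *LATS2* are targets that restrain YAP in return. In neuroblastoma, YAP and TAZ are known for their link to the mesenchymal cell state, in contrast to the adrenergic state of SK-N-BE(2)C.

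The promoters of 3 members with the TEAD motif are shown first, because they place the motif relative to the listed peaks. Each is the 250 bases before a start site in RefSeq (GRCh38.p14), printed 5′ to 3′ in the direction of transcription, with CATTCC or its reverse complement GGAATG in capitals. The promoter of *CCN2* (chr6:131951373-131951622, minus strand) held 3 motifs, that of *AMOTL2* (chr3:134374448-134374697, minus strand) 1 and that of *YAP1* (chr11:102110197-102110446, plus strand) 1.
CCN2: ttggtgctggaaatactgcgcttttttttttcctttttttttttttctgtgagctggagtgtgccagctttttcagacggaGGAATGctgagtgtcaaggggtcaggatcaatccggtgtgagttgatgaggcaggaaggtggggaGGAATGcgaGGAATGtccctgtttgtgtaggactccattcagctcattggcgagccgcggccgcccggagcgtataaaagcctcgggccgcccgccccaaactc
AMOTL2: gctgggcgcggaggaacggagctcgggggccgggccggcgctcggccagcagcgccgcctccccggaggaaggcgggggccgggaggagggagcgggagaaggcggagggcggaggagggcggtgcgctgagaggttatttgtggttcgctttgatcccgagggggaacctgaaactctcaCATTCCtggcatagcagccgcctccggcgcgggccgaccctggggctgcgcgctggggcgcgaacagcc
YAP1: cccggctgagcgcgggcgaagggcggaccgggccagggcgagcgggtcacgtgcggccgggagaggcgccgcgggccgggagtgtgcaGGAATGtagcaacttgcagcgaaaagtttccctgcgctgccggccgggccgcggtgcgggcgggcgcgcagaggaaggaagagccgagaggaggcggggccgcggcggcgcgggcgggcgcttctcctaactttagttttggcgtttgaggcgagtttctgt
The *CCN2* motifs ended 164, 99 and 90 bases upstream of the canonical start, and no peak of either list covered them. The *AMOTL2* motif lay 64 bases upstream of the start and inside a peak of the sgCtrl list, 123 bases from its summit, while no sgSNHG1 peak covered it. The *YAP1* motif lay 157 bases upstream, and the *YAP1* peaks of both lists began downstream of it. RefSeq promoter sequences matched 7 of the 10 members, with 10 promoters of 300 bases (250 before the start and 50 after), and 4 of these 10 held the TEAD motif, against 14.0% of all 35116 RefSeq promoters. The AP-1 motif TGANTCA was in 0 of the 10 and in 7.71% of all. Sequences of *TEAD1*, *TEAD4* and *CCN1* promoters were not used here.

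Distal and newly listed peaks of the members are shown next, with the TEAD motif in capitals. Each is the 300 bases around the midpoint of the peak, on the plus strand of GRCh38. The *WWTR1* peak is 261 bases long, so its sequence includes flanking bases on both sides. They are the intronic *TEAD1* peak found in both lists with the most TEAD motifs (chr11:12813988-12814287), the *TEAD1* peak with the largest difference downward in fold enrichment (chr11:12724681-12724980), the *WWTR1* (chr3:149604582-149604881) and *TEAD2* (chr19:49361950-49362249) peaks present in sgSNHG1 alone with a fold enrichment of at least 4, and the highest peak near *CCN1* (chr1:85576547-85576846).
TEAD1 motif peak: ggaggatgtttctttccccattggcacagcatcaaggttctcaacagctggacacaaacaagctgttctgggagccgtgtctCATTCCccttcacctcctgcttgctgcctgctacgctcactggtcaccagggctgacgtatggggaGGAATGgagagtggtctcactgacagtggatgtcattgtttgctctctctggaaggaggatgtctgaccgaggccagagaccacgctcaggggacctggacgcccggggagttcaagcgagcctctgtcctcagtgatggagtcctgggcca
TEAD1 largest difference: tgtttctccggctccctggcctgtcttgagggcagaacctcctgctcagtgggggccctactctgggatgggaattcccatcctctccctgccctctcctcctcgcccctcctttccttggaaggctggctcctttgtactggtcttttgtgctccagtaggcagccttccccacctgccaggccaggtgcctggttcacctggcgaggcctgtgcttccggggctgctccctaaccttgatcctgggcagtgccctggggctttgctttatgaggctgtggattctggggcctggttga
WWTR1 sgSNHG1 peak: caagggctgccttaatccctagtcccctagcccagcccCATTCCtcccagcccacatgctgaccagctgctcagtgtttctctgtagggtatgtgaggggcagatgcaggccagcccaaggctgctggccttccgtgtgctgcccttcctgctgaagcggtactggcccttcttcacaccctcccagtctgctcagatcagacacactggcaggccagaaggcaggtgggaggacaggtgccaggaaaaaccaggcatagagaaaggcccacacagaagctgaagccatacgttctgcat
TEAD2 sgSNHG1 peak: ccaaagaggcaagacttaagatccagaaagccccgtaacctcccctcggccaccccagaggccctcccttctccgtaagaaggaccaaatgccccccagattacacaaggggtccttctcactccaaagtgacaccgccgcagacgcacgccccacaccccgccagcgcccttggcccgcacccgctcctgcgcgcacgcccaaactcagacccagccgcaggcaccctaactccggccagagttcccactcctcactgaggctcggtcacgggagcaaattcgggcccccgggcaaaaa
CCN1 upstream peak: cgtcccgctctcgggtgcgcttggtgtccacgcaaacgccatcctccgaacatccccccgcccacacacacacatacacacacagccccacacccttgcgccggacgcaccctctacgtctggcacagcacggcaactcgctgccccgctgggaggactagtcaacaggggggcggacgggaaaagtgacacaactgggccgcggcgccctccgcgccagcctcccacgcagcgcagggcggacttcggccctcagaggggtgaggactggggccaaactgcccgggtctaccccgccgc
Motifs were counted in the 300 bases around each peak's midpoint, which include flanking bases at shorter peaks. Of the member peaks, 4 of 47 in sgCtrl (8.51%) and 7 of 43 in sgSNHG1 (16.3%) held the TEAD motif, against 11.2% and 11.0% of all peaks. *TEAD1* held 4 of the 7 in sgSNHG1 and *TEAD4* 2. A second intronic *TEAD1* peak with 2 motifs, 167 kb downstream of the start, was in sgSNHG1 only, at 2.97. The promoter peak of *TEAD4* held 3 motifs in both lists, more than any other member peak. The AP-1 motif was in 1 member peak of sgCtrl (2.13%, all peaks 4.16%) and in 2 of sgSNHG1 (4.65%, all peaks 4.11%). No member peak held both motifs within these 300 bases. The whole sgSNHG1 promoter peak of *WWTR1* with a fold enrichment of 4.48 did hold both, and whole peaks were not counted for the pair. A match of letters is a description of the sequence and not a bound site.

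The peaks of the members were spread unevenly. *TEAD1* alone held 18 of the 47 in sgCtrl and 17 of the 43 in sgSNHG1, *TEAD4* held 10 and 8, *WWTR1* 4 and 7, *TEAD3* 5 and 4, *TEAD2* 3 and 4, *CCN1* 2 and 2, and *YAP1* 1 and 1. *AMOTL2* had 4 peaks in sgCtrl and 0 in sgSNHG1, and *CCN2* and *LATS2* had 0 in both. A peak in both lists was found at 75.2% of all 20007 protein-coding genes, in neither at 18.3%, and in sgCtrl only at 4.16%. Introns held 30 member peaks in each list, exons 11 and 8, and the flanks 6 and 5. Within 3 kb of one of the gene's own start sites lay 11 sgCtrl and 13 sgSNHG1 peaks. Of the 8 members with a peak, 4 had fewer peaks in sgSNHG1 (*TEAD1*, *TEAD3*, *TEAD4* and *AMOTL2*), as 46.7% of all genes with an sgCtrl peak had, and 2 had more (*WWTR1* and *TEAD2*), as 18.5% of all genes with a peak had. The ratio of sgSNHG1 to sgCtrl peaks was 0.915 for the members and 0.787 for the whole lists. The plot of all member peaks shows that most lay under a fold enrichment of 6 and that no peak found in 1 list only was above 4.73.

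**Figure D1:**
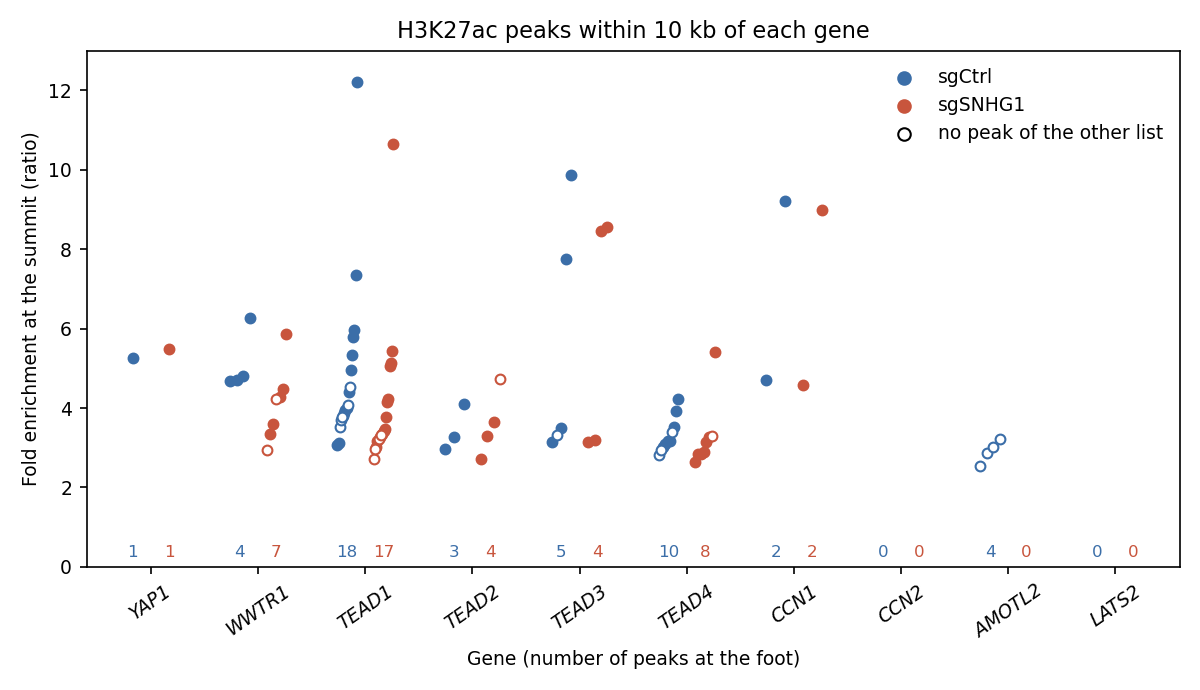
Fold enrichment at the summit (ratio, vertical axis) of every H3K27ac peak within 10 kb of each of the 10 genes, with sgCtrl in blue and sgSNHG1 in red; open circles are peaks that no peak of the other list overlaps, and the numbers at the foot count the peaks. *TEAD1* had the most peaks and the highest one in each list, *AMOTL2* had 4 open circles in sgCtrl and no sgSNHG1 peak, and *CCN2* and *LATS2* had no peak.

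Of the 47 sgCtrl peaks, 34 shared 1 bp or more with an sgSNHG1 peak (72.3%, 95% Wilson interval 58.2 to 83.1), and 13 did not, against a background of 38.5% of all sgCtrl peaks without an sgSNHG1 peak. Of the 43 sgSNHG1 peaks, 35 overlapped an sgCtrl peak (81.4%, 67.4 to 90.3), and 8 did not, against 20.8% of all. These intervals cover counting error only, and peaks of 1 gene share a region. Peaks of low −log10 p accounted for most of the 13. Without a partner were 5 of 7 sgCtrl peaks with a −log10 p from 6 to 10 (background 75.5%), 7 of 16 from 10 to 15 (56.4%), 1 of 17 from 15 to 30 (20.4%) and 0 of 7 of at least 30 (0.975%). The 1 peak in the range from 15 to 30 lay in *TEAD1*, 166 kb downstream of its start. In sgSNHG1 the counts were 2 of 8 (background 40.8%), 4 of 16 (27.2%), 2 of 14 (11.4%) and 0 of 5 (1.2%) in the same ranges. Of the member peaks within 3 kb of any protein-coding start, 1 of 14 in sgCtrl (background 20.7%) and 3 of 16 in sgSNHG1 (14.7%) had no partner, and of the others 12 of 33 (47.2%) and 5 of 27 (24.6%). The single promoter peak of sgCtrl without a partner was that of *AMOTL2*, and those of sgSNHG1 were 2 of *TEAD1* and 1 of *TEAD2*.

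*YAP1* (chr11:102110447-102233424, plus strand), the coactivator itself, had 1 peak in each list, at its promoter, in an exon. Its fold enrichment was 5.26 in sgCtrl and 5.48 in sgSNHG1, with 30 fragments over the summit in both. Both values stood at percentile 77.5 of their list, and the local background of 4.89 and 4.66 fragments was the lowest recovered in each list. The *YAP1* peaks therefore differed by a factor of 1.04 in fold enrichment and not in fragments, and the 95% counting interval of the fragment ratio ran from -0.73 to 0.73 on the log2 scale. No other peak lay within the *YAP1* body or 10 kb around it in either list.

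*WWTR1* (chr3:149517235-149736714, minus strand), which encodes TAZ, had 4 peaks in sgCtrl, all shared, and 7 in sgSNHG1. Its highest peak lay in an intron of its longer transcripts, 56.4 kb upstream of the canonical start, at 6.28 in sgCtrl (percentile 85.1) and 5.87 in sgSNHG1 (percentile 80.7). The 3 promoter peaks read 4.82, 4.67 and 4.70 in sgCtrl and 4.27, 3.59 and 4.48 in sgSNHG1. All 4 shared peaks were thus lower in fold enrichment, by a median of -0.13 on the log2 scale, yet the fragments over these 4 summits went from 50 to 47, from 48 to 39, from 51 to 51 and from 65 to 62. The antisense gene *WWTR1-AS1* overlaps the promoter peaks, and the mark cannot be assigned to either strand. Of the 3 additional sgSNHG1 peaks, the sgCtrl peak 56.4 kb upstream overlapped 1 as well. The other two were intronic, 53.3 kb downstream of the start with a fold enrichment of 4.23 (printed above) and 20.04 kb downstream with 2.94.

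**Figure D2:**
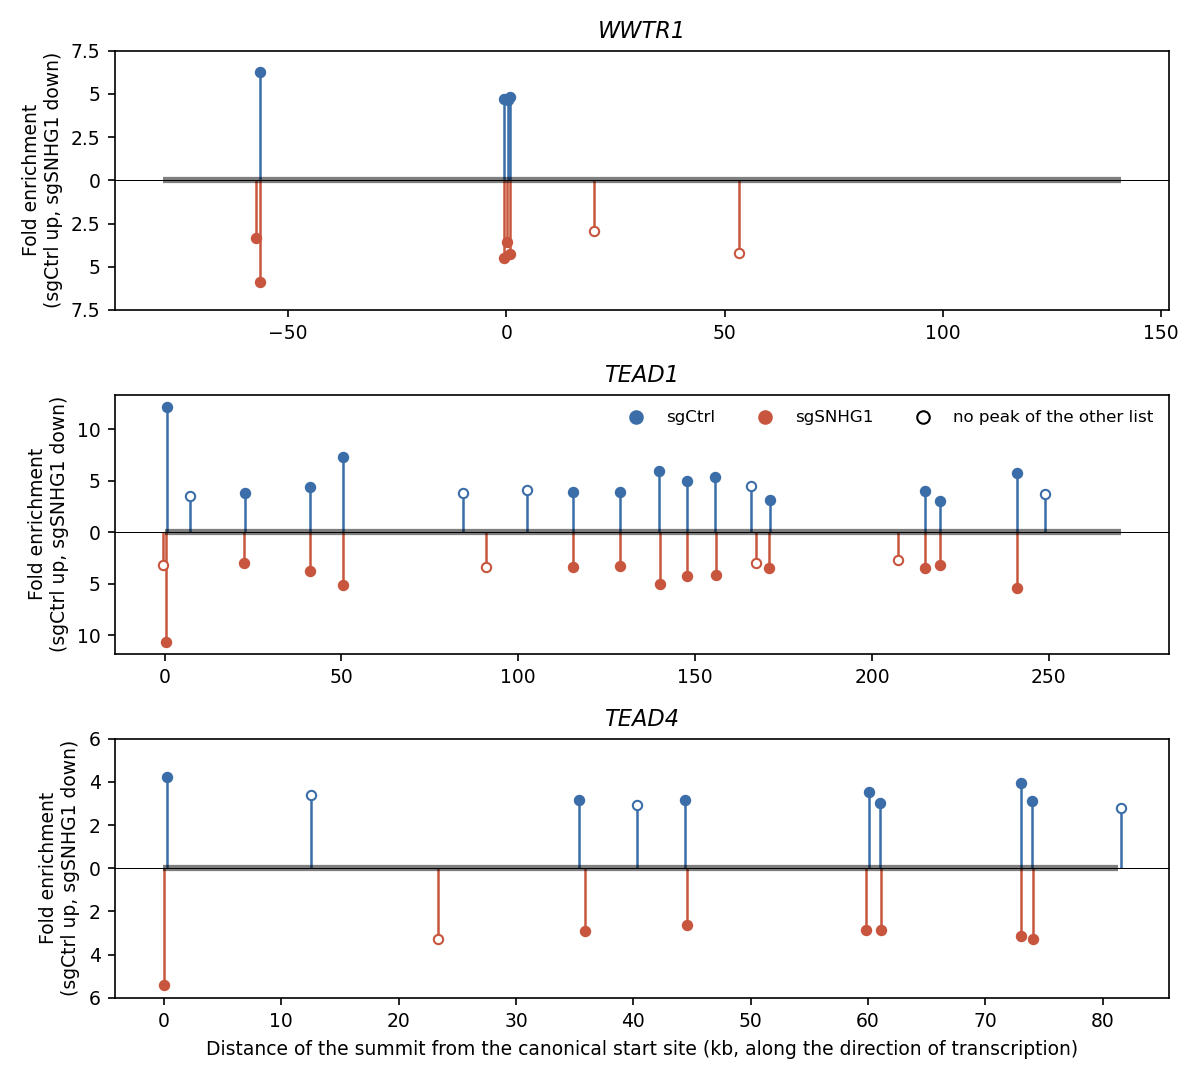
Position of the peaks along *WWTR1*, *TEAD1* and *TEAD4*, as distance of the summit from the canonical start site (kb, horizontal axis), with fold enrichment drawn upward for sgCtrl (blue) and downward for sgSNHG1 (red); open circles have no peak of the other list and the grey bar is the gene body. Shared peaks stood at like positions in both lists, and the 2 open circles of *WWTR1* lay downstream of its promoter in sgSNHG1 only.

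*TEAD1* (chr11:12674421-12944737, plus strand) had the highest peak of all members in each list, at its promoter, with a fold enrichment of 12.2 in sgCtrl (percentile 97.8) and 10.6 in sgSNHG1 (percentile 95.3). The summits of the overlapping peaks lay 352 bp apart, with 229 fragments over a local background of 17.8 at the sgCtrl summit and 286 over 25.96 at the sgSNHG1 summit. The fragments thus differed in the other direction from the fold enrichment, with a log2 ratio of 0.32 (0.07 to 0.57) against a median of -0.19 over all shared peaks, but at 2 positions of the promoter. A further sgSNHG1 peak of 3.22, with its summit at position -437 relative to the start, had no partner in sgCtrl.

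The body of *TEAD1* carried a series of intronic peaks over 270 kb. Of its 13 shared peaks, 11 were lower in fold enrichment in sgSNHG1 and 2 higher, with a median log2 ratio of -0.23. The largest difference downward was at the peak 50.5 kb downstream of the start, from 7.35 to 5.14, where 54 fragments stood over a background of 6.49 in sgCtrl and 48 over 8.53 in sgSNHG1. Among the 11 peaks with a lower fold enrichment, the local background was higher in sgSNHG1 at 10 and the fragments were lower at 8. Over all shared peaks the median log2 ratio was -0.12 for the background and -0.19 for the fragments. The shared peak with 2 TEAD motifs, 140 kb downstream, went from 5.98 to 5.05 and from 123 to 109 fragments. The overlapping peaks 171 kb downstream had 40 fragments at the sgCtrl summit and 72 at the sgSNHG1 summit, but these summits lay 424 bp apart, so the counts do not compare 1 position. Of 5 sgCtrl peaks without a partner, those 103 kb and 166 kb downstream reached 4.07 and 4.52. The 4 sgSNHG1 peaks without a partner lay between 2.70 and 3.32.

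**Figure D3:**
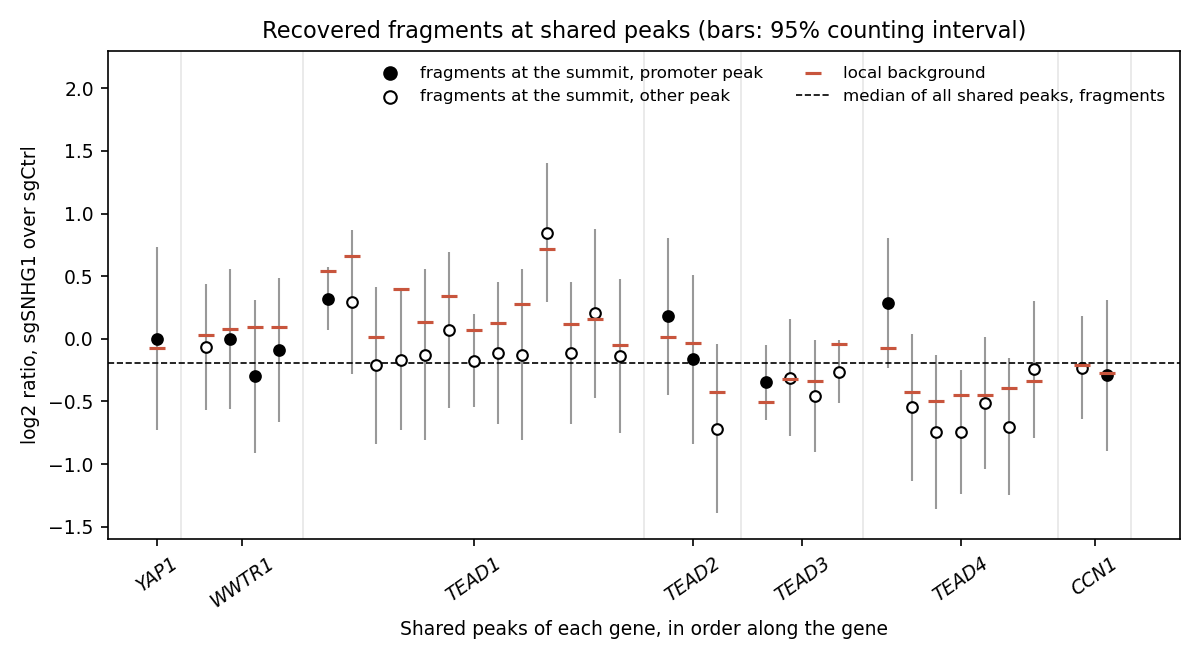
Log2 ratio of sgSNHG1 over sgCtrl (vertical axis) at each of the 34 shared peaks of the members, ordered along each gene; circles are fragments over each list's own summit (filled at promoters) with 95% counting intervals, red dashes the local background, and the dashed line the median of fragments over all shared peaks, -0.19. Red dashes lay above 0 at 12 of the 13 *TEAD1* peaks and below 0 at all 7 *TEAD4* peaks. The median of the background over all shared peaks, not drawn, was itself below 0, at -0.12.

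*TEAD4* (chr12:2959330-3040676, plus strand) had the largest difference upward of a highest peak among the members when peaks were ranked by fold enrichment, 15.9 percentile points. The direction turned when peaks were ranked by fragments (-10.97) or when promoter and other peaks were ranked apart (-2.67). By fragments, the highest peak was a different one in each list. It was the peak 60.1 kb downstream in sgCtrl (87 fragments) and the promoter peak in sgSNHG1 (66 fragments). Its factor is known for a part in *MYCN*-amplified neuroblastoma. Its promoter peak stood at 4.22 in sgCtrl (percentile 61.1) and at 5.41 in sgSNHG1 (percentile 77.0), with 54 and 66 fragments, and the log2 ratio of fragments was 0.29 (-0.23 to 0.81) at summits 214 bp apart. The other 6 shared peaks, 35.4 to 73.9 kb downstream in the body, all had fewer fragments in sgSNHG1, for example 57 and 34, 87 and 52, and 70 and 43. Of these 6, 5 were also lower in fold enrichment. Over all shared peaks the median log2 ratio of fragments was -0.19. Of these 6, only the peak 60.1 kb downstream had a counting interval that excluded this median. Its log2 ratio of fragments was -0.74 (-1.24 to -0.25), with summits 211 bp apart. The promoter of *TEAD4* thus had more fragments in sgSNHG1 and the body fewer, while the counting interval of the promoter included 0. Local background was lower in sgSNHG1 at all 7 shared *TEAD4* peaks, with a median log2 ratio of -0.42 against -0.12 over all shared peaks. Without a partner were 3 sgCtrl peaks of 3.39, 2.93 and 2.81 and 1 sgSNHG1 peak of 3.29.

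*TEAD3* (chr6:35473597-35497079, minus strand) had its highest sgCtrl peak, 9.86 (percentile 95.3), 28.2 kb downstream of its start and 445 bp from a start of *RPL10A*, a ribosomal protein gene. This peak read 8.45 in sgSNHG1. At the promoter of *TEAD3* itself the fold enrichment was 7.76 in sgCtrl (percentile 91.1) and 8.55 in sgSNHG1 (percentile 91.4), while the fragments went from 201 to 158 and the background from 25.0 to 17.6. The ratio was higher in sgSNHG1 and the fragments were lower, with a log2 ratio of fragments of -0.35 (-0.65 to -0.05), an interval that included the median of -0.19 over all shared peaks. All 4 shared peaks of *TEAD3* had fewer fragments in sgSNHG1, with a median log2 ratio of -0.33. All 4 ratios lay below the median of -0.19 over all shared peaks, but the counting interval of each included it. Relative to all shared peaks the *TEAD3* median was -0.13, and relative to shared peaks within 5 Mb it was -0.26. Whether *TEAD3* differed from other peaks cannot be told from intervals of this width.

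*TEAD2* (chr19:49340595-49362457, minus strand) had low peaks in sgCtrl, of which the highest, 4.11 (percentile 59.0), lay downstream of the gene with *CD37* as the nearest start. In sgSNHG1 the highest was a peak of 4.73 (percentile 68.6, −log10 p of 20.9) at chr19:49361812-49362388, in an intron and ending 28 bp from the canonical start, which had no sgCtrl partner. It was the highest of the 8 sgSNHG1 member peaks without a partner, and 11.4% of all sgSNHG1 peaks with a −log10 p from 15 to 30 had none. The body of the overlapping gene *DKKL1* also covers it. The nearest sgCtrl peak to that start was 1.09 kb away, with 3.26 in sgCtrl and 3.65 in sgSNHG1.

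*CCN1* (chr1:85580761-85584589, plus strand), also known as *CYR61*, had 2 peaks in each list, both shared. The higher lay 3.97 kb upstream of its start and within the gene *DDAH1*, whose start is the nearest, with a fold enrichment of 9.21 in sgCtrl (percentile 94.2) and 8.99 in sgSNHG1 (percentile 92.3). The peak at the *CCN1* start read 4.72 and 4.58. The fragments were 102 and 87 at the upstream peak and 49 and 40 at the start, and both counting intervals included a log2 ratio of 0.

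*CCN2* (chr6:131948176-131951372, minus strand), also known as *CTGF*, had no peak in either list. The nearest peak to its start was 450 kb away in sgCtrl and 323 kb away in sgSNHG1, so that the CATTCC-rich promoter printed above lay in a wide region without a listed peak. *LATS2* (chr13:20973036-21061586, minus strand), a kinase that phosphorylates YAP, had none either, with the nearest peak 114 kb and 79.1 kb from its start. The lists hold only peaks past the threshold of the peak caller, so acetylation below it is not shown to be absent.

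*AMOTL2* (chr3:134355347-134375479, minus strand), whose protein binds YAP and holds it in the cytoplasm, was the only member with peaks in 1 list only. Its 4 sgCtrl peaks, all in exons, had fold enrichments of 2.54, 2.86, 3.22 and 3.01, with −log10 p values from 7.40 to 12.5 and from 33 to 49 fragments. The peak of 3.01 covered the start site and the CATTCC motif of the printed promoter. The nearest sgSNHG1 peak was 32.5 kb from the start. The highest of the 4 stood at percentile 34.1 of the sgCtrl list. Of 6676 genes with at least 4 sgCtrl peaks, 23 (0.345%) had no sgSNHG1 peak. Of the 158 genes whose 4 or more sgCtrl peaks all had a −log10 p under 15, a comparison chosen after the *AMOTL2* values were seen, 11 (6.96%) had none. When the sgCtrl list was cut to the length of the sgSNHG1 list, which removed peaks with a −log10 p under 10.5, 1 of the 4 peaks was left. Within 5 Mb of *AMOTL2* there were 326 peaks in sgCtrl and 240 in sgSNHG1, a ratio of 0.736, and its part in the *AMOTL2* result was not tested.

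Over the 7 members with a peak in both lists, the percentile of the highest peak was lower in sgSNHG1 at 4 (*WWTR1*, *TEAD1*, *TEAD3* and *CCN1*) and higher at 3 (*YAP1*, *TEAD2* and *TEAD4*). The median change was -1.87 percentile points, against -0.68 over 15051 genes, of which 59.1% were lower. This median was the value of *CCN1*, at the peak nearest the start of *DDAH1*. The direction of the members' median turned when peaks were ranked by −log10 p (0.053) or by fragments (0.57). The changes were 0.019 at *YAP1*, -4.41 at *WWTR1*, -2.51 at *TEAD1*, 9.57 at *TEAD2*, -3.89 at *TEAD3*, 15.9 at *TEAD4* and -1.87 at *CCN1*. At *TEAD2* and *TEAD3* the highest peak was a different one in each list, and the promoter peak of *TEAD3* itself was at nearly the same percentile in both. With the gene body alone, which leaves out that promoter peak, the changes were 33.1 at *TEAD2*, -12.3 at *TEAD3* and -4.62 at *CCN1*. The other members kept their values, and the median was then -2.51. No member's highest fold enrichment differed by 1.5 times or more, a size reached by 1.97% of all genes upward and by 1.59% downward. At a change of 25% or more (or its reciprocal downward), *TEAD4* was higher by a factor of 1.28 and no member was lower, against 11.4% and 8.52% of all genes.

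At the 34 shared member peaks, fold enrichment was lower in sgSNHG1 at 26 and higher at 8 (23.5%), whereas 45.1% of 39156 shared peaks in all were higher. *TEAD1* gave 11 of the 26. The median log2 ratio was -0.16 for the members and -0.03 for all. None differed by 1.5 times or more, as 1.81% of all shared peaks did upward and 2.66% downward. In fragments, the medians were nearly alike at -0.17 for the members and -0.19 for all. The counting interval excluded the median of all at 3 of the 34 (8.82%), against 25.1% of the 38925 shared peaks with recovered fragments. These were the *TEAD1* promoter and the *TEAD1* peak 171 kb downstream, both above it as 15.4% of all were, and the *TEAD4* peak 60.1 kb downstream, below it as 9.68% of all were. All 3 were among the 7 pairs of member peaks whose summits lay more than 200 bp apart (20.6%, all shared peaks 14.7%), where the fragments were counted at different positions. Among the other 27 pairs the interval excluded the median at 0, against 25.4% of all shared peaks with summits this close, and the fold enrichment was lower at 21. The interval is wider where fragments are few, and the shares over all shared peaks were not matched to the members for fragments. They therefore do not show that the members differed less than other peaks. The member peaks in the plot of shared peaks lay within the cloud of the other shared peaks and mostly under the diagonal.

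**Figure D4:**
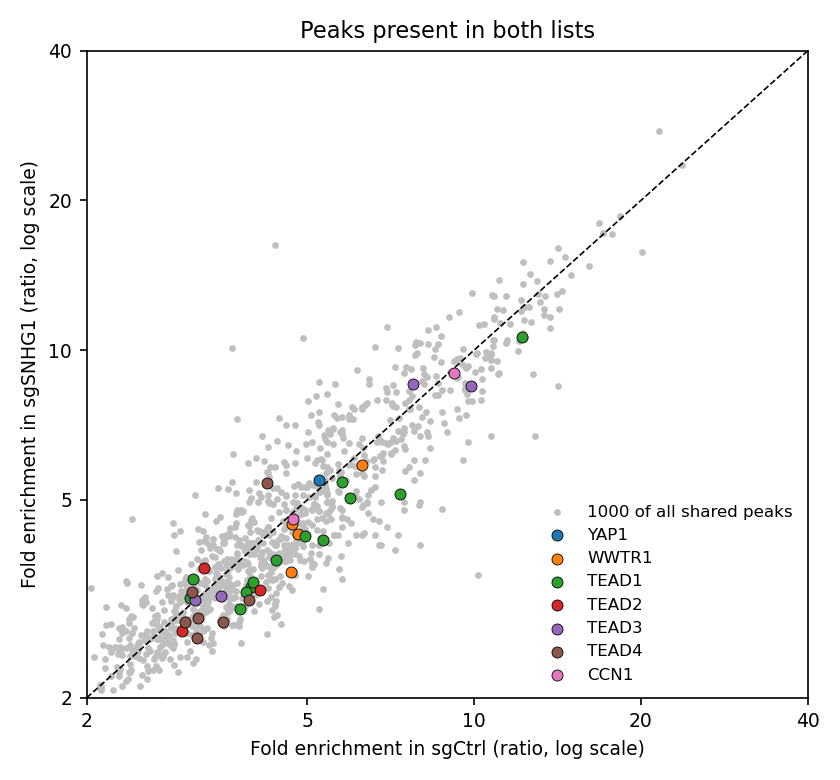
Fold enrichment of peaks present in both lists (ratio, log scale on both axes, sgCtrl horizontal and sgSNHG1 vertical), for the 34 member peaks coloured by gene and for 1000 shared peaks drawn at random from all (grey); the dashed line marks equal values. Of the 34 coloured points, 26 lay under the line.

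The other genes of the pathway were described in the same way. Of 20 genes for the kinase cascade, its scaffolds and the TEAD cofactors, 16 had a peak in both lists, with 75 peaks in sgCtrl and 70 in sgSNHG1. The percentile of the highest peak was lower in sgSNHG1 at 12 and higher at 4, with a median change of -1.56. No gene passed 1.5 times. By percentile, the largest differences downward were at *VGLL4*, a TEAD cofactor that competes with YAP, from 5.61 to 4.08 in fold enrichment (-25.3 percentile points), and at *PTPN14*, a phosphatase that binds YAP, from 5.19 to 4.41 (-14.5). By the ratio of fold enrichments it was at *MOB1B*, a kinase activator named after its values were seen, from 11.5 to 7.95 (-7.45 percentile points). While its highest peak was lower, *VGLL4* had 6 peaks over 2950 bases in sgCtrl and 10 over 3602 bases in sgSNHG1. Of these, 1 and 5 lay at its own start sites. The kinase gene *STK4* (MST1) had the largest difference upward, from 6.80 to 8.54 (3.47). *VGLL3*, a further TEAD cofactor, had 1 peak of 4.41 in sgCtrl and 0 in sgSNHG1. *AMOT*, *VGLL1* and *VGLL2* had none in either list. *LATS1*, the paralog of *LATS2*, had its highest peak at 12.4 in sgCtrl and 13.5 in sgSNHG1.

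Of 17 further YAP and TAZ targets, 14 had a peak in both lists, with 73 peaks in sgCtrl and 66 in sgSNHG1. The percentile was lower at 11 and higher at 3, with a median change of -2.11, and no gene passed 1.5 times. *FOXF2*, a forkhead factor, had the largest difference downward by percentile, from 4.10 to 3.77 (-11.5), and *GADD45A*, a stress-response gene, had it by the ratio of fold enrichments, from 10.9 to 9.23. *TGFB2*, a TGF-beta ligand, had the largest difference upward, from 4.65 to 5.58 (8.64), followed by *DOCK5*, from 6.40 to 7.36 (2.05). *IGFBP3*, an IGF-binding protein, and *NT5E*, which encodes the surface enzyme CD73, had 1 peak in sgSNHG1 only, of 4.06 and 4.96, as 2.28% of all genes had peaks in sgSNHG1 only. *ANKRD1* had no peak in either list, as *CCN2* had none. These lists were written from general knowledge, and their counts of lower genes stand beside 59.1% over all genes.

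**Figure D5:**
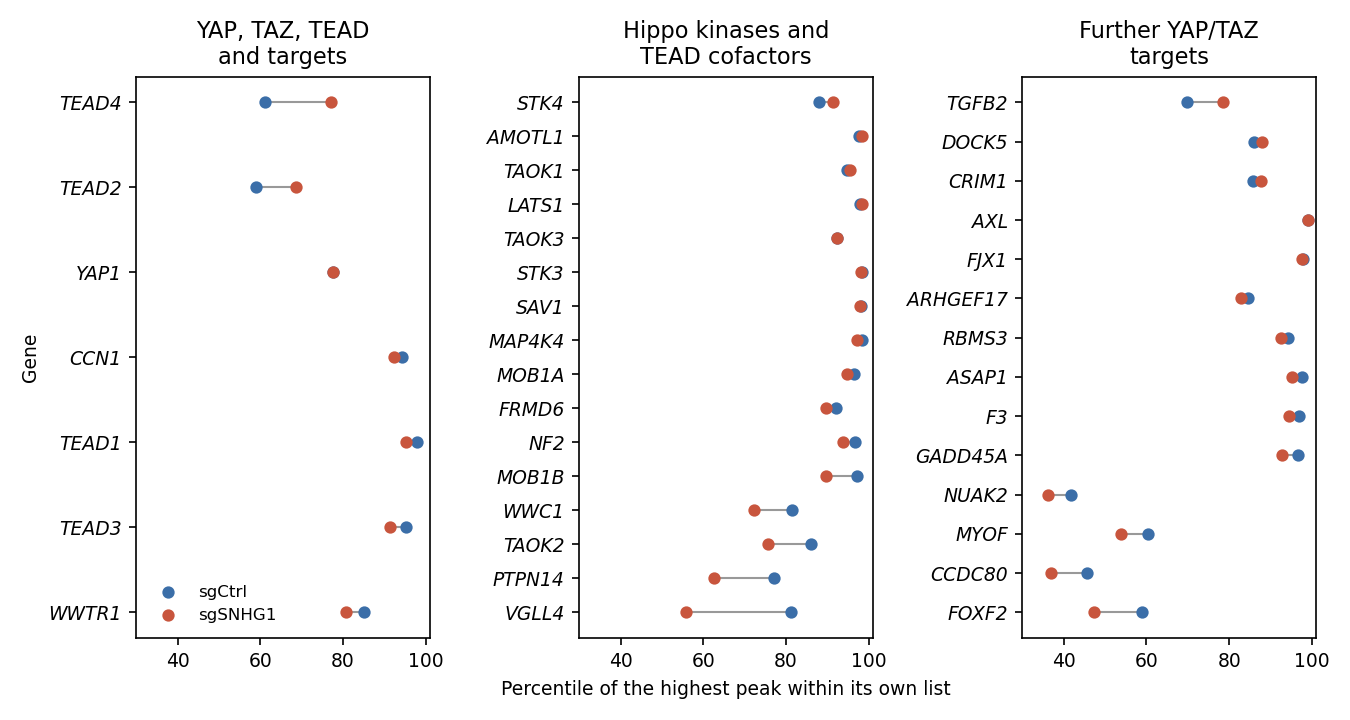
Percentile of the highest peak within its own list (horizontal axis) for each gene with a peak in both lists, in sgCtrl (blue) and sgSNHG1 (red), for 7 members, 16 Hippo kinases, scaffolds and TEAD cofactors, and 14 further YAP and TAZ targets. Ranked by fold enrichment, *TEAD4* was 15.9 percentile points higher in sgSNHG1 and *VGLL4* differed by -25.3, the largest differences of their panels. The direction at *TEAD4* turned by fragments (-10.97, between different peaks of the lists) and with promoters ranked apart (-2.67).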

How the data were processed

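H3K27ac ChIP-seq was performed in 2 sgCtrl and 2 sgSNHG1 samples of SK-N-BE(2)C cells. The authors trimmed reads with cutadapt, aligned them to GRCh38 with BWA, combined the replicates of each group and called peaks with MACS2 at a p-value of 1e-06, keeping duplicates. No input library is named in the sources used here. Columns of the deposited lists were used, namely the fold enrichment ratio at the summit, the −log10 of the p-value and the summit offset.

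Peaks were assigned to GENCODE release 44 genes with Python 3.11.15, numpy 2.4.6, pandas 2.3.3 and scipy 1.17.1, and overlaps were tested on simulated data against bedtools 2.31.1. Fragments over a summit and the local background were recovered from fold enrichment and −log10 p, on the assumption of a pseudocount of 1 and a Poisson tail. They came out whole within 0.001 for 99.7% of peaks, and for all member peaks. Fragment intervals are 95% counting intervals and do not cover duplicates or replicates. Motifs were searched on both strands.

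Named were all 10 members, their highest peaks and their peaks in 1 list only of at least 4, the 3 largest rises and falls of the pathway lists, and pathway genes with peaks in 1 list only. The members and lists were chosen with earlier results of these data known. *LATS1*, *ANKRD1*, *MOB1B*, *GADD45A* and the peaks named at lower values were added after their values were seen. A further marker gene is not reported here. Alternatives are given at the end.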

Additional observations from a re-analysis of the deposited data

How the results depend on the processing

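No paired analysis was possible because each group's 2 replicates had been combined before peak calling, and for the same reason no replicate could be left out. Of 111 alternative values, 49 stayed close, 42 moved and 20 changed direction. With lists of equal length the ratio of member peaks became 1.23, the median change of the highest peak -0.30, the shared part of sgCtrl peaks 85.7%, and the medians of the pathway lists -0.53 (kinases and cofactors) and 0.31 (further targets). That setting shortens only the sgCtrl list, and it moved the median of all genes to 0.996. The median change of the highest peak was -0.92 with 50 kb around the body, 0.053 by −log10 p, 0.57 by fragments and -2.84 with promoter and other peaks ranked apart.

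By gene, the change of the highest peak turned at *YAP1* (-1.33 at a −log10 p of at least 10, -2.84 with classes apart), *WWTR1* (3.47 with 50 kb, 0.98 by fragments), *TEAD1* (0.053 by −log10 p, 0.57 by fragments) and *TEAD4* (-10.97 by fragments, -2.67 with classes apart). The *TEAD4* value by fragments compares different peaks of the lists. With at least 50% overlap of both peaks, 57.4% of sgCtrl and 62.8% of sgSNHG1 member peaks were shared. At shared peaks, fragments relative to all shared peaks gave 0.027 over the members, 0.079 at *TEAD1*, 0.029 at *TEAD2*, 0.12 at *WWTR1* and 0.19 at *YAP1*. They gave -0.35 at *TEAD4*, -0.13 at *TEAD3* and -0.067 at *CCN1*. Relative to shared peaks within 5 Mb, fragments gave -0.040 over the members, 0.015 at *TEAD1*, 0.18 at *WWTR1* and 0.059 at *YAP1*. They gave -0.39 at *TEAD4*, -0.26 at *TEAD3*, -0.22 at *CCN1* and -0.060 at *TEAD2*. Fold enrichment relative to shared peaks within 5 Mb turned at *WWTR1* (0.064) and *CCN1* (0.00010). The local background alone gave -0.011, and fold enrichment at pairs with summits within 200 bp -0.17, both added after seeing the data. At a change of 25%, 1 member passed, in place of 0 at 1.5 times. Except where the setting itself shortens a list, the cause was not tested.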
